A study of Homo sapiens with 4 samples.

Results

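Acute phase proteins are plasma proteins that the liver makes in larger amounts during inflammation, and fibrinogen, the precursor of the fibrin clot, is among the most abundant of them. The 10 genes examined here, FGA, FGB, FGG, HP, HPX, ORM1, ORM2, SAA1, CRP and LBP, were chosen by name, and their read counts were looked up by symbol in 4 RNA sequencing libraries. In total, 9 of the 10 matched a row among 16370 genes. CRP matched none and was not analysed here. SAA1 was listed in the Hep3B pair alone, so 9 members were measured in that pair and 8 in the Huh7 pair.

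Hep3B and Huh7 are established human hepatoma lines and form the group of hepatocellular carcinoma cells (HCC). The group of hepatic cancer stem cells (HCSC) consists of Hep3B-C, derived from Hep3B, and Huh7-C, derived from Huh7, both cultured as stem-like cells. No genetic alteration or drug is given for any culture in the labels. Each line was 1 library, without a replicate, so a test of 2 libraries compares those libraries and covers counting error only. A difference between cultures or preparations cannot be told apart from one between HCSC and HCC.

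In the liver, interleukin-6 signals through its receptor and the shared subunit gp130 to JAK kinases and STAT3, and together with interleukin-1, NF-kB and C/EBP factors it raises transcription of acute phase genes. Fibrinogen responds mainly to interleukin-6, while serum amyloid A, C-reactive protein and the orosomucoids respond to interleukin-1 and interleukin-6 together. Hepatoma lines are commonly used to study this response. The labels give no cytokine treatment for any of the cultures.

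The fibrinogen chains are encoded by neighbouring genes on chromosome 4, with FGB (GRCh38 position 154562956 to 154571086, plus strand), FGA (154583126 to 154590766, minus strand) and FGG (154604134 to 154612967, minus strand) separated by 12039 and 13367 bases. ORM1 and ORM2 lie 3393 bases apart on chromosome 9, ORM1 at 114323056 to 114326475 and ORM2 at 114329869 to 114333252, both on the plus strand. HPX is on chromosome 11 (6431049 to 6442617, minus strand), HP on chromosome 16 (72054592 to 72061055, plus strand), LBP on chromosome 20 (38346356 to 38377023, plus strand) and SAA1 on chromosome 11 (18266174 to 18269977, plus strand). These are annotation positions of GENCODE release 29, while the reads had been aligned to an older build.

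To show where known acute phase elements lie in these genes, the 250 bases before the annotated start are printed for the fibrinogen chains, whose CPM was lower in both HCSC lines, and for HPX and ORM1, whose CPM was higher in Hep3B-C and lower in Huh7-C. They come from RefSeq (GRCh38.p14), which had entries for 6 members, and read 5′ to 3′ on the strand of the gene. The RefSeq starts differ from the GENCODE positions above, and the windows of FGG and HPX lie within those positions. Capitals mark matches, on either strand, to 3 motifs: TTCNNNGAA (STAT), CTGGGAA (the interleukin-6 response element of fibrinogen genes) and TTGCNNAA (C/EBP). Among 35116 annotated starts, these were present in 6.57%, 9.15% and 9.05% of the windows of the same length.

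FGB, chr4:154562761-154563010, plus strand: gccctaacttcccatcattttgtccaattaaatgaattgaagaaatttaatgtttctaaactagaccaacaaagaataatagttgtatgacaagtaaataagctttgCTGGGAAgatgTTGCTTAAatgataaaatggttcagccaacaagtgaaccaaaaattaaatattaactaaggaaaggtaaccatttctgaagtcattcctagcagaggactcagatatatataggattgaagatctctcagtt
FGA, chr4:154590743-154590992, minus strand: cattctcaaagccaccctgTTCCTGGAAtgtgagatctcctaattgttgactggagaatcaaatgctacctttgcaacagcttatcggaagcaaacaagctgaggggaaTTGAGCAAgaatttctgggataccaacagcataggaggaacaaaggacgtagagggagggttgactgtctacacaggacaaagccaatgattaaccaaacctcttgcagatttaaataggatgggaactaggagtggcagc
FGG, chr4:154612657-154612906, minus strand: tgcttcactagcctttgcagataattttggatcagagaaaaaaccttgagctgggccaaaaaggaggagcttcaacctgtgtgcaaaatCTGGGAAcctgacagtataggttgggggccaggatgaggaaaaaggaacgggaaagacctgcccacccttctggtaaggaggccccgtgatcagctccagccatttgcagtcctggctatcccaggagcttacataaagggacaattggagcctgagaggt
HPX, chr11:6440988-6441237, minus strand: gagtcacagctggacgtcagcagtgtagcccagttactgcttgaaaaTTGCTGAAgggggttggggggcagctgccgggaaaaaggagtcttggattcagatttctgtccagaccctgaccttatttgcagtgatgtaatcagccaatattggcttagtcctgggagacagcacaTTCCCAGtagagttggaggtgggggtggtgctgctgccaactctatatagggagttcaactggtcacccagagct
ORM1, chr9:114322848-114323097, plus strand: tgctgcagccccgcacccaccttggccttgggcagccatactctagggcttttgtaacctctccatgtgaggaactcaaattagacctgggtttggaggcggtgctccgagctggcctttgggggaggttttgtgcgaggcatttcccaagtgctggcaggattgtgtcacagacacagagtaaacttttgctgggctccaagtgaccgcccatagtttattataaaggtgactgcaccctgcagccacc

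FGB held CTGGGAA 143 bases and TTGCNNAA 132 bases before its start, and before its other annotated start the same matches lay at 112 and 101 bases. FGA held TTCNNNGAA at 231 and TTGCNNAA at 141 bases, FGG held CTGGGAA at 161 bases, and HPX held TTGCNNAA at 203 and CTGGGAA at 75 bases. ORM1 matched none of these letters in this window. A match describes the sequence and does not show that a factor was bound in these cells.

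Total counts on genes ranged from 2896418 in Hep3B to 4641927 in Hep3B-C, and 3 counts, taken as the smallest level a library could show, corresponded to between 0.646 and 1.04 CPM (count as a share of all gene counts, scaled). All 8 of the 8 hepatocyte markers (ALB, APOB, APOA2, TTR, TF, HNF4A, SERPINA1, APOH) were listed. Their summed level was 56228 CPM in Hep3B and 69751 in Hep3B-C, against 48637 in Huh7 and 26136 in Huh7-C. SERPINA1 made up most of it in Huh7 (40517 CPM) and Huh7-C (17284), where TTR had 13 counts in each. ALB had 106.2 CPM in Huh7 and 266.7 in Huh7-C, and APOH 23.1 and 16.4. Among 6 leukocyte markers 3 were listed in each pair, with summed levels between 100.6 and 271.7 CPM that came almost wholly from CD68, a lysosomal protein of many cell types, and at most 6 counts of CD14. Fibroblast and endothelial markers summed to between 12.7 and 48.9 CPM, with 4 of 7 listed in the Hep3B pair and 5 of 7 in the Huh7 pair, and with COL3A1 rising from 0 to 58, PECAM1 from 17 to 93 and PDGFRB falling from 186 to 2 counts in Huh7-C. Their part in the results was not tested. In such bulk samples, fewer cells that express a gene and less RNA per cell cannot be told apart.

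**Figure D1:**
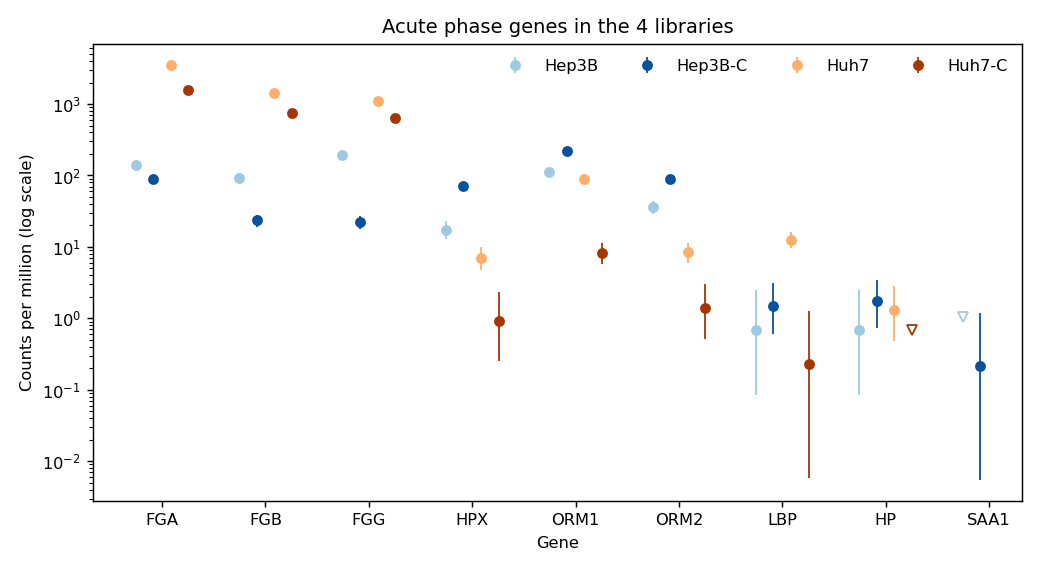
Level of 9 members in each library, in CPM on a log axis; points are single libraries, bars are 95% Poisson intervals of the count, and open triangles mark a count of 0, drawn at the level of 3 counts. The fibrinogen chains are highest in Huh7 and Huh7-C, while HPX, ORM1 and ORM2 are highest in Hep3B-C and lowest in Huh7-C.

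The members together made up 0.0592% of counts in Hep3B (95% Wilson interval from 0.0565 to 0.0621) and 0.0519% in Hep3B-C (0.0498 to 0.0540), against 0.616% in Huh7 (0.609 to 0.623) and 0.298% in Huh7-C (0.293 to 0.303). Fibrinogen dominated this sum in the Huh7 pair, with 98.1% of the members' counts in Huh7 and 99.6% in Huh7-C. In Hep3B it was 72.2%, and in Hep3B-C it was 26.1%, where ORM1 alone had more counts than the 3 chains combined (1016 against 629).

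Fibrinogen is a hexamer of paired Aα, Bβ and γ chains, encoded by FGA, FGB and FGG and assembled in the endoplasmic reticulum of hepatocytes. FGA had 140.5 CPM in Hep3B and 90.05 in Hep3B-C, against 3491 in Huh7 and 1579 in Huh7-C (407, 418, 15840 and 6844 counts). In Huh7 it ranked 19 among all genes by count, and in Huh7-C 54. FGB had 92.5 CPM in Hep3B and 23.5 in Hep3B-C, against 1436 in Huh7 and 755.7 in Huh7-C (268, 109, 6516 and 3275 counts). FGG had 194.7 CPM in Hep3B and 21.97 in Hep3B-C, against 1113 in Huh7 and 635.9 in Huh7-C (564, 102, 5049 and 2756 counts). By CPM all 3 chains were thus lower in each HCSC line than in its parental line, although for FGA in Hep3B-C the sign depended on the scaling, as given next, and both Huh7 lines stood above both Hep3B lines.

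The sizes of these differences varied between the pairs. In Hep3B-C, FGG was down-regulated 8.86-fold (95% counting interval from 7.17 to 11.1, log2 fold-change -3.14, counting SE 0.15) and FGB 3.94-fold (3.14 to 4.97, log2 fold-change -1.97, SE 0.16). The ratio of FGA there was within 2-fold (log2 fold-change -0.64, SE 0.10), and it turned slightly positive with DESeq2 size factors as library sizes (0.038). The same happened with GC and length trends removed (0.078). In that setting the average change of genes of like GC content and length, relative to the overall median, was subtracted. The overall median itself was kept, and all genes had a median of -0.71 in this pair after the removal. In Huh7-C the order was the other way round, with FGA lowered most (log2 fold-change -1.14, SE 0.02), then FGB (-0.93, SE 0.03) and FGG (-0.81, SE 0.03). FGB and FGG lay just inside the 2-fold limit in that pair and were not called. Summed over the chains, fibrinogen counts fell 3.16-fold in Hep3B-C (2.87 to 3.48) and 2.03-fold in Huh7-C (1.99 to 2.08) with total counts as library sizes. With TMM these were 2.089-fold and 2.092-fold, and with DESeq2 size factors 1.97-fold and 2.13-fold, so which line fell more depended on the scaling.

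Since the chains enter the protein in equal numbers, their levels were also compared per length, as RPKM (counts scaled by gene length and library total). In Huh7 these were 955.1 for FGA, 736.0 for FGB and 631.9 for FGG, and in Huh7-C 432.1, 387.3 and 361.1. The ratio of FGA to FGG in RPKM was 1.51 in Huh7 (95% counting interval from 1.46 to 1.56) and 1.20 in Huh7-C (1.14 to 1.25), so the chains lay closer together in Huh7-C. Hep3B had the opposite order, with 38.4 RPKM of FGA, 47.4 of FGB and 110.6 of FGG, and a ratio of FGA to FGG of 0.348 (0.306 to 0.395). In Hep3B-C the levels were 24.6, 12.04 and 12.5 RPKM and the ratio was 1.97 (1.59 to 2.45). FGB and FGG did not differ per length in Hep3B-C beyond counting error (ratio 0.965, 0.736 to 1.26), whereas FGG exceeded FGB in Hep3B (ratio of FGB to FGG 0.429, 0.371 to 0.496). FGA is longer than the other chains (3655 bases against 1951 for FGB and 1761 for FGG). A single length per gene was given, and a shorter FGA transcript would raise its RPKM, so the order of the chains depends on these lengths. Relative to the overall median, the length trend in Hep3B-C was -0.18 on the log2 scale at the length of FGA, against 0.63 for FGB and 0.75 for FGG. With GC and length trends removed, FGB there was at -1.55 and FGG at -2.84, and both were still called.

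**Figure D2:**
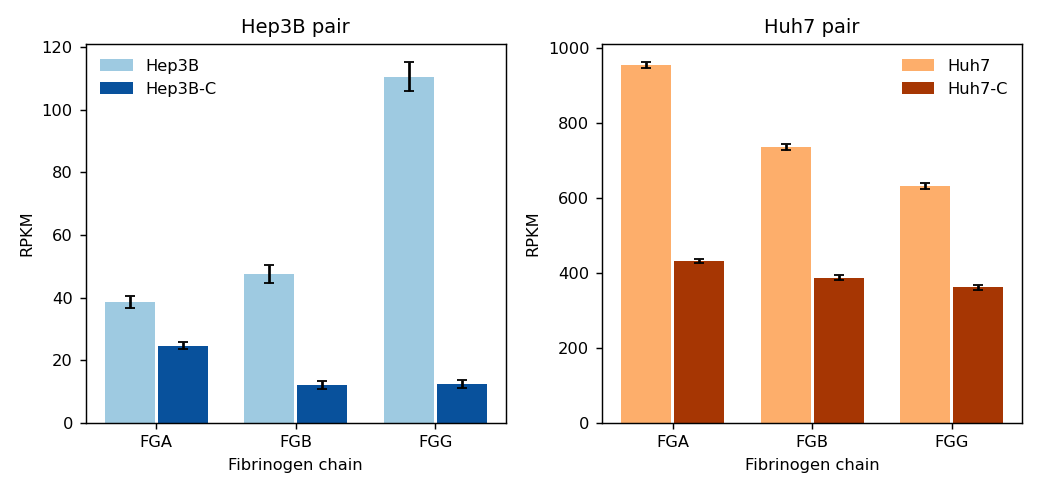
RPKM of FGA, FGB and FGG in the Hep3B pair and the Huh7 pair, on separate axes; each bar is 1 library and the error bar is the counting SE. FGG is the highest chain in Hep3B, at 110.6 RPKM, and FGA in the other 3 libraries.

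HPX encodes hemopexin, the plasma protein that binds free heme. It had 17.3 CPM in Hep3B and 72.2 in Hep3B-C, against 7.05 in Huh7 and 0.923 in Huh7-C (50, 335, 32 and 4 counts). It was up-regulated 4.18-fold in Hep3B-C (3.10 to 5.75, log2 fold-change 2.05, SE 0.22) and down-regulated 7.64-fold in Huh7-C (2.71 to 29.7, log2 fold-change -2.79, SE 0.73). The Hep3B-C value fell to 0.72 with GC and length trends removed, which ended the call.

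ORM1 and ORM2 encode orosomucoid, also called α1-acid glycoprotein, an abundant carrier of basic drugs in plasma. ORM1 had 110.1 CPM in Hep3B and 218.9 in Hep3B-C, against 88.8 in Huh7 and 8.31 in Huh7-C (319, 1016, 403 and 36 counts). ORM2 had 35.9 CPM in Hep3B and 88.8 in Hep3B-C, against 8.37 in Huh7 and 1.38 in Huh7-C (104, 412, 38 and 6 counts). Both genes were highest in Hep3B-C and lowest in Huh7-C. In Huh7-C, ORM1 was down-regulated 10.7-fold (7.59 to 15.5, log2 fold-change -3.40, SE 0.25) and ORM2 6.05-fold (2.54 to 17.5, log2 fold-change -2.50, SE 0.61). In Hep3B-C, ORM2 was up-regulated 2.47-fold (1.99 to 3.10, log2 fold-change 1.30, SE 0.16), and ORM1 at 1.99-fold (1.75 to 2.26, log2 fold-change 0.99, SE 0.09) lay just inside the limit.

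The rise of the orosomucoids in Hep3B-C did not hold under every treatment of the data. With TMM library sizes ORM1 passed the threshold there (1.58), while removal of the length trend gave -0.18 for ORM1 and 0.13 for ORM2, and removal of GC and length trends gave -0.26 and 0.03. These are short, GC-rich transcripts (839 and 844 bases, GC content 52.99% and 53.2%). Relative to the overall median, the GC and length trend in Hep3B-C was 1.25 and 1.27 for them on the log2 scale. In Huh7-C the same corrections left ORM1 at -3.08 and ORM2 at -2.18.

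ORM1 and ORM2 transcripts in GENCODE were 95.9% identical over 760 aligned bases, so reads can have been assigned to either gene. The pair was therefore also summed. The sum rose 2.11-fold in Hep3B-C (1.89 to 2.35) and fell 10.03-fold in Huh7-C (7.30 to 14.1). ORM2 took 24.6% of the counts of both genes in Hep3B and 28.9% in Hep3B-C, against 8.62% in Huh7 and 14.3% in Huh7-C.

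LBP encodes the lipopolysaccharide-binding protein, which hands bacterial lipopolysaccharide to CD14. It had 57 counts in Huh7 and 1 in Huh7-C, against 2 in Hep3B and 7 in Hep3B-C. The ratio of Huh7 to Huh7-C was 54.4, with a counting interval from 9.39 to 2188 (log2 fold-change -5.19, SE 1.19), and it was called. The Hep3B pair gave a log2 fold-change of 0.90 (SE 1.05), within counting error.

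HP encodes haptoglobin, which binds free hemoglobin, and it was close to the lower limit of the libraries. It had 2 counts in Hep3B and 8 in Hep3B-C, against 6 in Huh7 and 0 in Huh7-C, and was called in neither pair (counting FDR 0.46 and 0.053). HP shares 96.3% of 1240 aligned bases with its neighbour HPR, so these few reads are uncertain in their assignment. SAA1, a serum amyloid A of high-density lipoprotein, had 0 counts in Hep3B and 1 in Hep3B-C, too few to detect a difference.

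**Figure D3:**
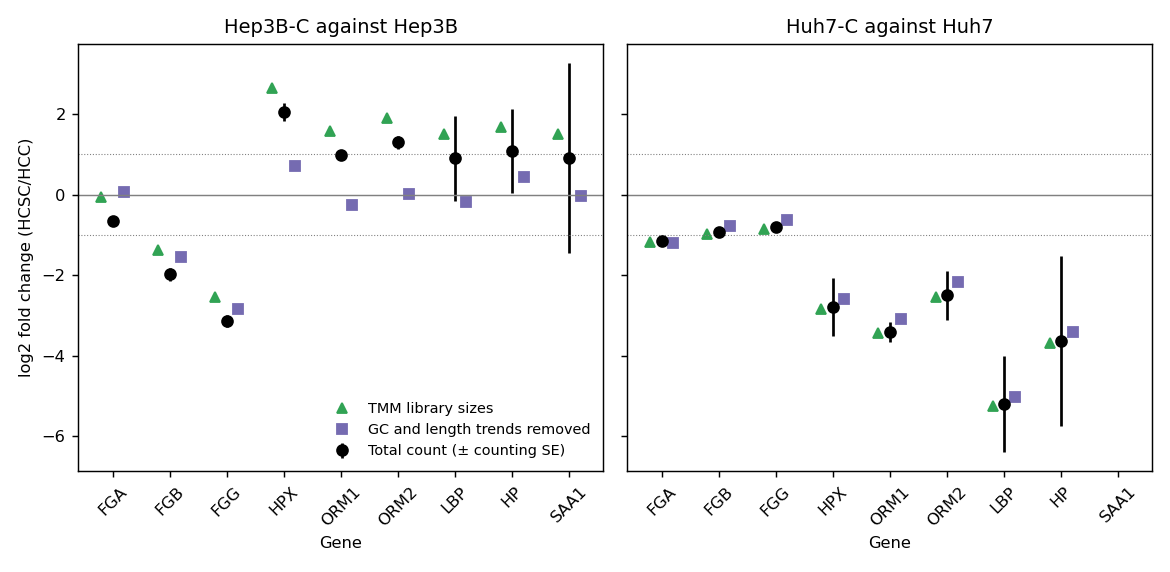
Log2 fold-change (HCSC/HCC) of each member in the Hep3B pair (left) and the Huh7 pair (right); black points use total counts with the counting SE, green triangles TMM library sizes and purple squares GC and length trends removed, and dotted lines mark 2-fold. In the Huh7 pair all 8 members lie below 0 under each of these, and SAA1 was not listed. In the Hep3B pair, removal of the trends puts HPX, ORM1 and ORM2 at 0.72, -0.26 and 0.03.

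Genes were called at a counting FDR of at most 0.01 with at least a 2-fold change. TMM, which sets library sizes by the bulk of genes, moved the median of all genes in the Hep3B pair by 0.60 on the log2 scale. In Hep3B-C, 2 of 9 members were up-regulated (HPX, ORM2) and 2 down-regulated (FGB, FGG), where 13.2% of all 15480 genes tested were called up and 30.4% down. With TMM, these numbers over all genes became 3348 up and 2799 down, in place of 2043 and 4708, and 3 members were up and 2 down. In Huh7-C, 5 of 8 members were down-regulated (FGA, HPX, ORM1, ORM2, LBP) and none up, where 4.15% of 14807 genes were called down and 4.19% up. The median log2 fold-change of the members was 0.90 in Hep3B-C against -0.68 over all genes, and -2.64 in Huh7-C against 0.07 over all genes. Over the 7 members with at least 10 counts in a pair it was 0.99 and -2.50. The value of 0.90 is that of SAA1 and LBP, on few counts, and it became 0.097 with 5 added to each count, -0.18 with the length trend removed and -0.039 with GC and length trends removed. Over all genes in Hep3B-C these settings gave -0.68, -0.78 and -0.71. In Huh7-C the same settings gave -1.52, -2.40 and -2.38 for the members, against 0.07, 0.05 and 0.05 over all genes. No member was called in the same direction in both pairs. The share of all genes called so was not computed, so this says nothing particular about the members. The members with lower CPM in both HCSC lines were the 3 fibrinogen chains, apart from the change of sign of FGA in Hep3B-C.

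With total counts, the log2 fold-change in Hep3B-C minus that in Huh7-C was 4.84 for HPX (counting SE 0.76), 4.39 for ORM1 (SE 0.27), 3.801 for ORM2 (SE 0.63), 6.10 for LBP (SE 1.59) and 4.72 for HP (SE 2.36). For the fibrinogen chains it was smaller, at 0.50 for FGA (SE 0.10), -1.05 for FGB (SE 0.17) and -2.33 for FGG (SE 0.16). With GC and length trends removed, HPX was at 3.30, ORM1 at 2.81, ORM2 at 2.20 and LBP at 4.84, and HP fell to 1.28 with 5 added to each count. Without both trends FGA was at 1.28, FGB at -0.77 and FGG at -2.20, so FGG differed about as much as ORM2. With the length trend alone removed, FGG at -3.25 differed more than ORM1 at 2.92 and ORM2 at 2.33. The smaller difference of FGG thus depended on the setting. These differences could not be tested against replicates.

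HCSC and HCC were next compared over all 4 libraries with edgeR, blocked by parental line. The fit asks whether the groups differ by more than the pairs differ from each other. The low-count filter passed 6 of 9 members (FGA, FGB, FGG, HPX, ORM1, ORM2). None of the 6 was called at an adjusted p of 0.05, and none had an unadjusted p under 0.05, where 0.077% of 11691 genes were called. FGG had the largest change (log2 fold-change -1.80, adjusted p = 0.999 by edgeR's quasi-likelihood test). DESeq2 also called no member, and 1 of the 9 had an unadjusted p under 0.05. It called 6 genes up and 9 down among the 8753 that received an adjusted p. Which of the 9 members were among these was not recorded.

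The members were also compared between the parental lines. Between the HCC lines, 4 of 9 members were called higher in Huh7 (FGA, FGB, FGG, LBP) and 2 lower (HPX, ORM2), where 15.6% of 16370 genes were called up and 26.2% down. FGA was 24.8-fold higher in Huh7 than in Hep3B (22.5 to 27.5), FGB 15.5-fold (13.7 to 17.6) and FGG 5.71-fold (5.24 to 6.24). LBP was 18.2-fold higher (4.81 to 153.8), on 2 counts in Hep3B. ORM1 differed little between the HCC lines (log2 fold-change -0.31, SE 0.11), and the sign of that value changed with DESeq2 size factors (0.026), while removal of GC and length trends gave -1.82 and a call. The call for HPX between these lines was lost with TMM (-0.99).

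Between the HCSC lines, 3 of 9 members were called higher in Huh7-C (FGA, FGB, FGG) and 3 lower (HPX, ORM1, ORM2), where 16.6% of genes were called up and 11.3% down. FGB was 32.2-fold higher in Huh7-C than in Hep3B-C (26.6 to 39.3), FGG 28.9-fold (23.7 to 35.6) and FGA 17.5-fold (15.9 to 19.4). HPX was 78.2-fold lower in Huh7-C (30.3 to 288.6), ORM2 64.1-fold lower (29.2 to 175.7) and ORM1 26.3-fold lower (18.9 to 37.8). TMM changed the balance over all genes to 3334 up and 3523 down between the HCC lines, in place of 2555 and 4283, and to 2153 and 2296 between the HCSC lines, in place of 2725 and 1844.

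In the joint edgeR fit, 3 of the 6 members that passed the filter were higher in the Huh7 lines, where 3.65% of genes were called higher, and 2 were lower, where 4.82% were. Log2 fold-changes (Huh7 over Hep3B lines) were 4.46 for FGB (edgeR adjusted p = 0.0002), 4.37 for FGA (edgeR adjusted p = 0.00023) and 3.66 for FGG (edgeR adjusted p = 0.0037). They were -3.88 for ORM2 (edgeR adjusted p = 0.0047) and -3.53 for HPX (edgeR adjusted p = 0.026), while ORM1 at -2.49 was not called (edgeR adjusted p = 0.22). This comparison has 1 cell line on each side and 1 residual degree of freedom. Without the term for HCSC and HCC, 3 of the 6 were called, against 6.82% of all genes in either direction. With 1 library left out and no such term, 0 of 6 members were called without Huh7 (2.34% of genes), 2 of 7 without Huh7-C (2.24%), 3 of 7 without Hep3B-C (28.8%) and 5 of 7 without Hep3B (13.8%).

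Other acute phase genes were examined from lists fixed by name. For the genes of these and the following lists, values with GC and length trends removed are not given. Their changes in Hep3B-C were therefore not checked against those trends, under which HPX and ORM2 lost their calls there. The list of other positive acute phase genes also holds SAA4, which is constitutive. Whether each gene on it, A2M among them, is induced in human hepatocytes was not checked. Of 17 of its genes listed in the Hep3B pair, 4 were up-regulated in Hep3B-C and 2 down-regulated, beside 13.2% and 30.4% of all genes. LCN2, which binds bacterial siderophores, rose from 21 to 476 counts (3.79 on the log2 scale, SE 0.32), while CP, the copper carrier ceruloplasmin, fell from 3959 to 245 (-4.69, SE 0.09) and complement C3 from 33110 to 8811 (-2.59, SE 0.02). Of 15 listed in the Huh7 pair, 6 were down-regulated in Huh7-C and none up-regulated, beside 4.15% and 4.19% of all genes. SAA4, the constitutive serum amyloid A, fell from 480 to 17 counts (-4.71, SE 0.35), the protease inhibitor A2M from 16256 to 3525 (-2.14, SE 0.03) and antitrypsin (SERPINA1) from 183846 to 74907 (-1.23, SE 0.01). In Hep3B-C, SERPINA1 was called in the other direction, from 29292 to 124896 (1.41, SE 0.01). For this list the median log2 fold-change stood at 0.40 in the Hep3B pair and at -1.31 in the Huh7 pair, against -0.68 and 0.07 over all genes. The value of 0.40 is that of SAA4, on 4 and 9 counts. The value of -1.31 is that of ITIH4, on 32 and 12 counts, which was not called.

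Negative acute phase genes encode plasma proteins that decline in inflammation, and their median log2 fold-change stood at 0.45 in the Hep3B pair and at -1.72 in the Huh7 pair. Over all genes it was -0.68 and 0.07. In Huh7-C, 6 of 10 were down-regulated and 1 up-regulated, beside 4.15% and 4.19% of all genes. AHSG (fetuin-A) fell from 6396 to 577 counts (log2 ratio -3.40, SE 0.06), RBP4, the retinol carrier, from 4169 to 658 (-2.60, SE 0.06) and transferrin (TF) from 7019 to 1384 (-2.28, SE 0.04), while ALB, named here as the only gene of the list called up, rose from 482 to 1156. In Hep3B-C, 3 of 10 were up-regulated and 2 down-regulated, beside 13.2% and 30.4% of all genes, with RBP4 rising from 716 to 5908 (2.36, SE 0.06), APOA1 from 1333 to 10986 (2.36, SE 0.04) and GC, the vitamin D carrier, falling from 6167 to 3271 (-1.60, SE 0.03).

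Cytokines and their receptors start the acute phase signal. Of 13 cytokine ligands and receptors listed in the Hep3B pair, 1 was up-regulated and 4 down-regulated in Hep3B-C, shares near those of all genes (13.2% and 30.4%). Among the latter were the interleukin-1 receptor accessory protein IL1RAP (404 and 43 counts, log2 fold-change -3.90 with SE 0.23), the gp130 subunit IL6ST (126 and 52 counts, -1.95, SE 0.24) and the receptor IL1R1 (81 and 43 counts, -1.59, SE 0.27). In Huh7-C, 1 of 12 was called, IL1R1, which fell from 766 to 111 counts (-2.71, SE 0.15). IL1R1 was thus called down in both HCSC lines, but not in the joint fit (edgeR adjusted p = 0.999, unadjusted p = 0.027). All genes called in Huh7-C made up 4.19% up and 4.15% down.

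Of 18 JAK, STAT3 and NF-kB genes, 1 was up- and 7 were down-regulated in Hep3B-C, and 3 were down-regulated in Huh7-C. Over all genes these shares were 13.2% and 30.4% in the Hep3B pair and 4.15% down in the Huh7 pair, so the number down in Hep3B-C was near that of all genes. TNFAIP3, an NF-kB inhibitor that NF-kB induces, was lower in both HCSC lines (353 and 67 counts in Hep3B and Hep3B-C, log2 fold-change -3.07, and 59 and 15 counts in Huh7 and Huh7-C, -1.87), and was not called in the joint fit (edgeR adjusted p = 0.999, unadjusted p = 0.0094). SOCS3, the STAT3-induced inhibitor of gp130 signaling, fell from 61 to 11 counts in Huh7-C (-2.35, SE 0.46) and had 0 and 1 counts in the Hep3B pair. STAT3, the mediator itself and outside the rule for named genes, was not called in either pair, with log2 fold-changes of -0.30 in Hep3B-C and -0.43 in Huh7-C. In Hep3B-C the interleukin-1 receptor kinase IRAK1 rose from 92 to 1037 counts (2.81, SE 0.16).

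Among 13 transcription factors of acute phase and hepatocyte genes, 3 were up- and 6 down-regulated in Hep3B-C, and 4 were down-regulated in Huh7-C, beside 13.2% up and 30.4% down over all genes in the Hep3B pair and 4.15% down in the Huh7 pair. In Hep3B-C, ONECUT1 (HNF6) fell from 269 to 22 counts (log2 ratio -4.26, SE 0.32) and the bile acid receptor NR1H4 from 165 to 16 (-4.01, SE 0.37). NR1H4 was also called down in Huh7-C, from 46 to 15 counts (-1.52, SE 0.42). The coactivator PPARGC1A fell in both lines, from 109 to 11 counts and from 127 to 0, and was called in the joint fit (log2 fold-change -5.04, edgeR adjusted p = 0.017). That call held without the count filter (edgeR adjusted p = 0.0094) and with DESeq2 (adjusted p = 0.037), and was lost without the block (edgeR adjusted p = 0.9999) and with any library left out (edgeR adjusted p from 0.097 without Hep3B-C to 0.9999 without Hep3B). In Huh7-C, CEBPA fell from 462 to 154 counts (-1.52, SE 0.13), and CREB3L3, a liver factor that acts on acute phase genes under endoplasmic reticulum stress, from 1376 to 373 (-1.82, SE 0.08). CREB3L3 was called down in Hep3B-C as well, from 424 to 247 counts (-1.46, SE 0.12). CEBPB, named after its values were seen, rose from 27 to 144 counts in Hep3B-C (log2 ratio 1.71, SE 0.30).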

How the data were processed

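Libraries labelled as mRNA, made from total RNA of 4 human hepatoma cultures, were sequenced (Illumina Genome Analyzer II). Reads were trimmed by the authors, with low-quality ones discarded, aligned with NextGENe to NCBI Build 36.1 and counted per transcript; the aligner version, annotation and handling of multiply matched reads were not given in the sources used here. The deposited values are unnormalized read counts of each gene, with gene lengths in bases; the authors also used RPKM, recomputed here from count, length and total count. Genes without a count in a pair were not listed in its files and were taken as 0 between pairs.

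Each pair of libraries was compared with the Audic-Claverie test (doubled tail, 0.5 added to each count for the fold-change), with Benjamini-Hochberg adjustment over all genes of the comparison. The thresholds are those of the study (FDR at most 0.01, absolute log2 fold-change at least 1), which names a Poisson-based test without giving its exact form, so calls need not match its own. SE and intervals (exact binomial for folds, from the Poisson SE for RPKM ratios) cover counting error only. All 4 libraries were fitted with edgeR 4.0.16 (TMM, filterByExpr, quasi-likelihood F-test across genes, parental line as block); the labels pair the samples by parental line, and deviations from the group means of paired samples correlated across 11682 genes (Pearson 0.599). DESeq2 1.42.0, R 4.3.3, Python 3.11.15, scipy 1.17.1 and statsmodels 0.14.6 were used. Alternatives were TMM or DESeq2 library sizes, a minimum of 10 counts, 5 added to each count, an exact binomial test, an assumed BCV of 0.4, and lowess trends over gene length, or over GC content and length, removed with the overall median kept. GC content came from GENCODE release 29 transcripts, for at least 99.1% of genes fitted. The pairwise tests were tested on simulated Poisson counts without spread between cultures, which does not show how they behave where cultures differ.

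Members, gene lists and tests were chosen with earlier results of these data known. Named genes were the members and, per other list and pair, up to 3 called genes with the largest change and at least 50 counts. Not every gene of the lists is reported here.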

Additional observations from a re-analysis of the deposited data

Results flagged for a closer look

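HPX and ORM2 were called in opposite directions in the pairs, up-regulated in Hep3B-C and down-regulated in Huh7-C. How large a share of all genes was called in opposite directions was not computed. The difference in log2 fold-change (Hep3B pair minus Huh7 pair) was 4.84 for HPX and 3.801 for ORM2. The difference was not tested, since each line was 1 library. With GC and length trends removed, it was 3.30 and 2.20, HPX in Hep3B-C was at 0.72 and ORM2 at 0.03, and neither was called there.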

How the results depend on the processing

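Counts of members called depended on the assumed spread between cultures. At a biological coefficient of variation (BCV) of 0.4, 0 members were called in Hep3B-C, 0 in Huh7-C and 2 between Huh7 and Hep3B, while all 6 calls between Huh7-C and Hep3B-C held. With GC and length trends removed, 2 members were called in Hep3B-C (FGB and FGG). Over all genes, BCV 0.4 left 62 genes up- and 169 down-regulated in Hep3B-C, against 13 up and 12 down in the Huh7 pair, 283 and 738 between Huh7 and Hep3B (6.24% in all) and 308 and 394 between Huh7-C and Hep3B-C (4.29%). Removal of both trends left 598 up and 3981 down in Hep3B-C, and TMM shifted the median log2 fold-change there by 0.60.

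Besides these counts, calls for HPX between Huh7 and Hep3B (lost with TMM and DESeq2 size factors) and HP between the HCSC lines (gained with these and without both trends, at -4.16 to -4.20) changed. In the Huh7 pair all 8 members kept their direction under every alternative run for single genes, as did FGB, FGG, HPX, ORM2 and HP in the Hep3B pair. Signs that changed in Hep3B-C belonged to values that were not called. FGA went to 0.038 with DESeq2 size factors and 0.078 without GC and length trends. ORM1 went to -0.18 without the length trend and -0.26 without both. SAA1 went to -0.42 with 5 added to each count, -0.29 without the length trend and -0.039 without both, and LBP to -0.18 without both. Between Huh7 and Hep3B, HP went to -0.18 and -0.24 without the length trend and without both, and ORM1 to 0.026 with DESeq2 size factors.

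The edgeR comparison of HCSC and HCC called 0 members with and without the replicate block (paired by parental line) and without the count filter. Over all genes it called 4 up and 5 down of 11691 with the block, 0 without it, and 6 and 8 of 16370 without the filter. With so few calls over all genes, these counts do not set the members apart from other genes. With the block, leaving out a library leaves no residual degree of freedom, so fits with a library left out had no block. For HCSC and HCC such fits leave 1 library in a group, and their counts are not given here. Between parental lines (alternatives chosen after the data were seen), 3 members were called without the group term and from 0 to 5 with each library left out. The 0 was without Huh7 (2.34% of all genes called), with 2 called without Huh7-C (2.24%), 3 without Hep3B-C (28.8%) and 5 without Hep3B (13.8%). The scalings of the fibrinogen sum and the settings for PPARGC1A were also chosen then. Depth limited HP, SAA1 and LBP in Hep3B, where a count of 0 allows up to 1.04 CPM.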

Other observations

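Genes with a profile like that of fibrinogen were ranked among 8002 genes with at least 100 counts in 1 or more libraries, outside every list, by the Euclidean distance of centred log2(CPM + 1) values over 4 libraries to the mean of FGA, FGB and FGG. The nearest was APLP1, an amyloid precursor-like protein, at 0.39 (8, 2, 229 and 110 counts in Hep3B, Hep3B-C, Huh7 and Huh7-C). ANGPTL4, a secreted inhibitor of lipoprotein lipase, followed at 0.45 (13, 1, 396 and 176 counts), then FKBP11, an endoplasmic reticulum prolyl isomerase, at 0.57 (12, 2, 185 and 121 counts). ZNF512 was at 0.76 (10, 1, 139 and 127 counts) and SLC2A2, the liver glucose transporter GLUT2, at 0.81 (55, 19, 665 and 306 counts). For comparison, FGB lay at 0.29, FGA at 0.92 and FGG at 0.996 from their own mean. Each of these 5 genes was lower in both Hep3B lines than in both Huh7 lines. APLP1, ANGPTL4, FKBP11 and ZNF512 had 1 or 2 counts in Hep3B-C, below the 3 counts taken as the smallest level. Their distances thus depended on the 1 added to each CPM. With 4 libraries many genes can share such a pattern, so the ranking is a description of these libraries.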
